A study of Homo sapiens with 6 samples.

Results

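Short stretches that lie between neighbouring domains and that no list covers are described here and called islands. They were chosen by the positions of the domains themselves: the 4 domain lists, 2 for lamin B1 and 2 for LC3, were merged into 568 union domains, and every gap of under 1 Mb between neighbouring union domains of a chromosome was kept. Of 545 gaps, 233 (42.8%) were islands, and the other 312 were 1 Mb or longer. Number, length, flanking domains and edging lists therefore all follow from the lists that chose the islands, so they are given as a description and without a test. Chromatin immunoprecipitation and sequencing had been done on IMR90 human lung fibroblasts, cultured in 3% oxygen and left untreated. All 6 samples share this one condition: lamin B1, LC3 and input chromatin, with 2 replicates each, and no domain list of the input was analysed here. Formaldehyde was the sole crosslinker. Nothing in the labels says whether replicates were separate cultures, so the spread between them may be technical.

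Lamin B1 is a filament protein of the nuclear lamina, the meshwork under the inner nuclear membrane. Sequence that touches the lamina forms lamina-associated domains, which are mostly gene-poor, late-replicating and silent, and which alternate along a chromosome with inter-domain sequence that sits deeper in the nucleus and is richer in active genes. LC3 is a ubiquitin-like protein that is joined to lipid on autophagosome membranes, and a part of it resides in the nucleus. In the lists, a short stretch between neighbouring domains is a place where domains stop and soon start again. Whether the chromosome leaves the lamina there was not tested, and undetermined bases of the assembly were not located. Genes, promoters and base composition of the islands were not analysed here, because the gene tables at hand use another genome build than the lists.

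Islands made up much of the gap number and little of the gap length. They held 119 Mb, or 10.9% of the 1098 Mb in all gaps, while the longer gaps held 978 Mb. Island length ranged from 28 to 975 kb with a median of 528 kb, and the middle 50% lay between 282 and 759 kb. The longer gaps had a median of 2.13 Mb and reached 25.7 Mb. Centromeres and undetermined bases were not taken out of the gaps, so lengths and shares include any such sequence. Counts per 100 kb of length stayed between 16 and 28 over the whole range of the islands, and the next class, from 1 to 1.1 Mb, held 19 gaps. There was no step at the limit of 1 Mb. The 3 gaps just inside it measured 975, 973 and 962 kb, and the 3 just outside measured 1002, 1010 and 1016 kb.

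**Figure D1:**
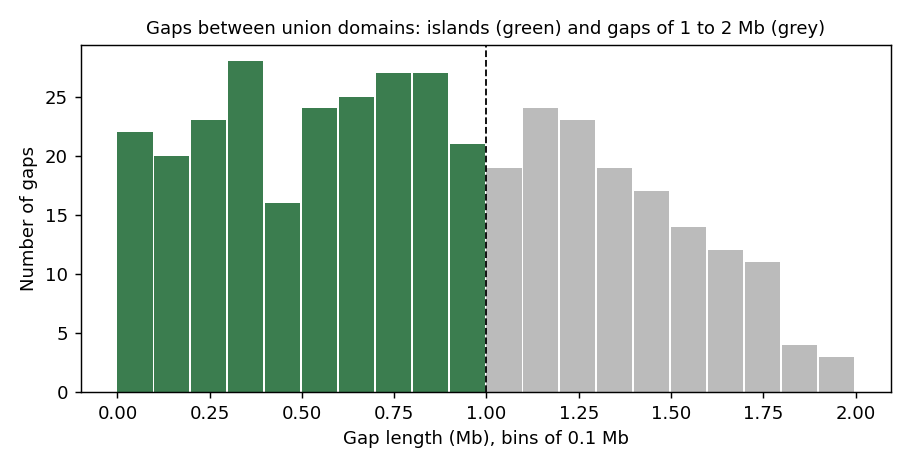
Number of gaps between union domains (y axis) by gap length in Mb (x axis, bins of 0.1 Mb, up to 2 Mb). Green bars are the 233 islands, grey bars are the 146 gaps from 1 to 2 Mb, and the dashed line is the 1 Mb limit. Counts differ little on either side of the line (21 and 19 gaps) and fall off beyond 1.4 Mb.

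The 5 longest islands were not all alike in what bordered them. On chromosome 7 from 39534001 to 40509000 (975 kb), both LC3 lists ended within 21 kb of both sides, whereas the lamin B1 lists resumed 1863 and 1803 kb beyond the upper end. The island on chromosome 18 from 46371001 to 47344000 (973 kb) was again closely framed by LC3, and lamin B1 stopped 387 and 567 kb short of its lower end. On chromosome 1 from 230980001 to 231942000 (962 kb), all lists ended within 16 kb of the lower side. At its upper side LC3 replicate 2 set the edge alone, and the other lists lay 293 to 298 kb further out. Replicates disagreed on the last pair. The island on chromosome 18 from 60160001 to 61120000 (960 kb) was set on both sides by LC3 replicate 1, and that on chromosome X from 9054001 to 10008000 (954 kb) by lamin B1 replicate 1. In the latter case no other list had a domain nearer than 678 kb on either side.

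Very short islands clustered in length. Of the 22 islands under 100 kb, 14 measured 51 to 62 kb, against 3 below that range and 5 between 65 and 100 kb. A second small cluster of 8 islands measured 150 to 160 kb, while the 10 kb classes on either side held 1 each. The shortest was on chromosome 4 from 31812001 to 31840000 (28 kb), followed by one on chromosome 7 from 50370001 to 50412000 (42 kb). The third, of 45 kb, was again on chromosome 4, from 32832001 to 32877000, so that it borders the same union domain of 0.992 Mb as the shortest. Next in length came islands on chromosome 1 from 2634001 to 2685000 (51 kb) and on chromosome 15 from 22212001 to 22263000 (51 kb). One on chromosome X from 7623001 to 7674000 tied with the last pair in length. Of the 14 islands of 51 to 62 kb, 11 were edged on both sides by at least 2 lists. Undetermined bases of the assembly were not located here, and their part in these lengths was not tested.

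Flanking domains were mostly longer than the island between them and unequal in length. The shorter of the 2 flanking union domains had a median of 0.852 Mb (range 0.177 to 8.28 Mb), and the longer had a median of 2.32 Mb (range 0.325 to 34.1 Mb). In 172 islands both flanks exceeded the island, and 15 islands were longer than both. The longer flank was a median of 2.45 times the shorter one. A flank of over 5 Mb bordered 64 islands, and 4 islands had such a flank on both sides. At the other end, 40 islands lay between a pair of domains that were each under 1 Mb. Longer gaps had flanks of nearly the same size, with medians of 0.883 Mb for the shorter and 2.75 Mb for the longer flank. Median length was 1.28 Mb for the 102 union domains with an island on both sides, 1.41 Mb for the 262 with an island on one side and 1.30 Mb for the 204 with none. The widest union domain beside no island spanned 61.0 Mb.

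The islands between the longest domains were narrow breaks or full-size gaps. On chromosome 13 from 86760001 to 86912000, an island of 152 kb parted a union domain of 33.4 Mb from one of 8.28 Mb. Lamin B1 ended within 32 kb of it on both sides in both replicates. LC3 replicate 1 ended 160 kb below and resumed 1013 kb above, and LC3 replicate 2 lay 42 and 73 kb away. An island of 893 kb on chromosome 11 from 95545001 to 96438000 lay between domains of 7.78 and 5.35 Mb. All lists framed it within 13 kb except LC3 replicate 1, which began 122 kb beyond the upper end. On chromosome X from 143264001 to 143559000 (295 kb), 3 lists ended within 20 kb on both sides, and LC3 replicate 1 was 504 and 3566 kb away. The island on chromosome 6 from 95676001 to 95832000 (156 kb) split domains of 5.04 and 9.33 Mb, and LC3 replicate 1 alone kept more than 50 kb of distance, 261 kb on the lower side. The fifth, on chromosome 10 from 81726001 to 82368000 (642 kb), had LC3 at its lower end in both replicates and lamin B1 at its upper end in both. In each of these 5 islands, LC3 replicate 1 was the list farthest from one of the edges. Those on chromosomes 13 and 6 fall in the length cluster of 150 to 160 kb. Undetermined bases of the assembly were not located there, and their part in these breaks was not tested.

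A list was said to edge an island on a side where its nearest domain ended within 50 kb of it. By construction at least 1 list edges each of the 466 sides. Lamin B1 edged 64.2% of sides in replicate 1 and 53.4% in replicate 2 (58.8 ± 7.6%, SD, n = 2). LC3 edged 50.6% and 56.4% (53.5 ± 4.1%, SD, n = 2). The means differed by less than the larger SD, and LC3 replicate 2 lay between the lamin B1 lists. Both sides were edged in 103 and 73 islands by the lamin B1 lists and in 71 and 86 by the LC3 lists. At the longer gaps the order of the means was the other way round, with lamin B1 on 56.7% and 45.5% of 624 sides and LC3 on 56.4% and 53.5%.

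Replicate 1 and replicate 2 of each antibody gave partly different pictures of which protein borders a side. In the lists of replicate 1, both proteins edged 117 sides (25.1%), lamin B1 without LC3 182 (39.1%), LC3 without lamin B1 119 (25.5%) and neither 48 (10.3%). In the lists of replicate 2, both proteins edged 140 sides (30.0%), lamin B1 without LC3 109 (23.4%), LC3 without lamin B1 123 (26.4%) and neither 94 (20.2%). The share with LC3 alone was thus nearly equal between replicates, and the share with lamin B1 alone was the one that moved most. On a side with neither, the edge was set by a list of the other replicate.

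Counted by island, a matching border of both proteins on both sides was uncommon. Both proteins edged both sides of 19 islands (8.15%) in replicate 1 and 28 (12.0%) in replicate 2. Lamin B1 without LC3 did so at 47 islands in replicate 1 and 16 in replicate 2, and LC3 without lamin B1 at 23 and 22. In 36 and 24 islands, lamin B1 stood on one side and LC3 on the other. Combinations of both proteins on one side with LC3 on the other numbered 29 and 36, and those with lamin B1 on the other 37 and 29. Both replicates put an island in the same class in 68 of 233 cases (29.2%). The order of the sides was ignored here, so an island with its sides swapped between replicates also counted. At longer gaps the share with both proteins on both sides was 7.05% in replicate 1 and 7.69% in replicate 2.

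**Figure D2:**
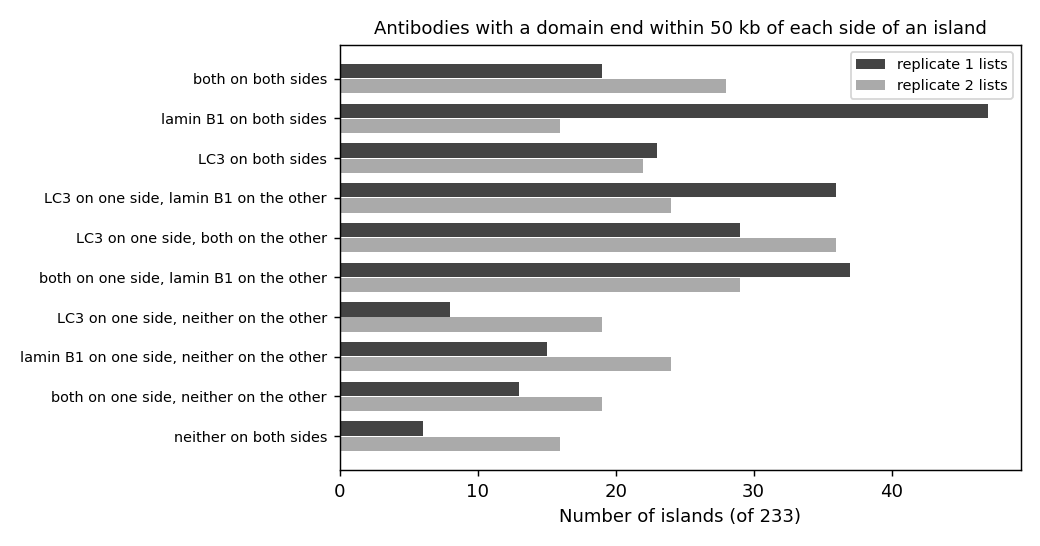
Number of islands (x axis, of 233) in each class of borders (y axis) by the lists of replicate 1 (dark bars) and of replicate 2 (light bars). A protein borders a side where a domain of its list ends within 50 kb. The class with lamin B1 alone on both sides shows the widest gap between replicates, 47 against 16 islands.

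Single sides were mostly edged by both lists of an antibody or by one list alone. The 2 lamin B1 lists without LC3 edged 90 of 466 sides (19.3%), all 4 lists edged 85 (18.2%), and the 2 LC3 lists without lamin B1 edged 63 (13.5%). One list alone edged 131 sides (28.1%): LC3 replicate 1 at 45, lamin B1 replicate 1 at 42, LC3 replicate 2 at 38 and lamin B1 replicate 2 at 6. Pairs made of one lamin B1 list and one LC3 list, without the others, edged 7, 7, 4 and 3 sides. Lamin B1 edged 228 sides in both replicates and 92 in one, whereas LC3 edged 171 in both and 157 in one. Positions told the same: the median distance between the replicates' nearest domain ends was 11 kb for lamin B1 (459 sides) and 39.5 kb for LC3 (438 sides). The corresponding distance between proteins was 230 kb in replicate 1 and 89.0 kb in replicate 2. At the longer gaps the order was the same, so it is not particular to islands. There the replicates lay 18 kb apart for lamin B1 and 51 kb for LC3, and the proteins 246 and 139 kb.

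All 4 lists framed 10 islands on both sides, 4.29% of all, spread over 9 chromosomes. They ranged from 52 to 873 kb. On chromosome X from 122692001 to 123452000 (760 kb), the own gaps of the lists, the stretch between a list's nearest domains on either side, measured 0.783 and 0.760 Mb for lamin B1 and 0.770 and 0.777 Mb for LC3. On chromosome 10 from 114070001 to 114865000 (795 kb), they measured 0.804 Mb in 3 lists and 0.795 Mb in LC3 replicate 1, with no list over 8 kb from either edge. On chromosome 9 from 77271001 to 77790000 (519 kb), they were 0.540, 0.548, 0.520 and 0.546 Mb. Others lay on chromosome 9 from 109959001 to 110672000 (713 kb), chromosome 3 from 36910001 to 37470000 (560 kb), chromosome 11 from 16515001 to 17388000 (873 kb) and chromosome 6 from 160011001 to 160323000 (312 kb). The remaining 3 measured 56, 52 and 57 kb and thus fell in the narrow length cluster: chromosome 4 from 59739001 to 59795000, chromosome 18 from 75720001 to 75772000 and chromosome 8 from 7473001 to 7530000. The count of 10 rose to 29 without LC3 replicate 1 and to 16 without LC3 replicate 2. It was 15 without lamin B1 replicate 1 and 14 without lamin B1 replicate 2. With 3 lists to match, the count can rise by construction. It also depended on the distance allowed, with 2 islands at 10 kb and 24 at 100 kb. Among the longer gaps, 12 of 312 (3.85%) were framed in this way.

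**Figure D3:**
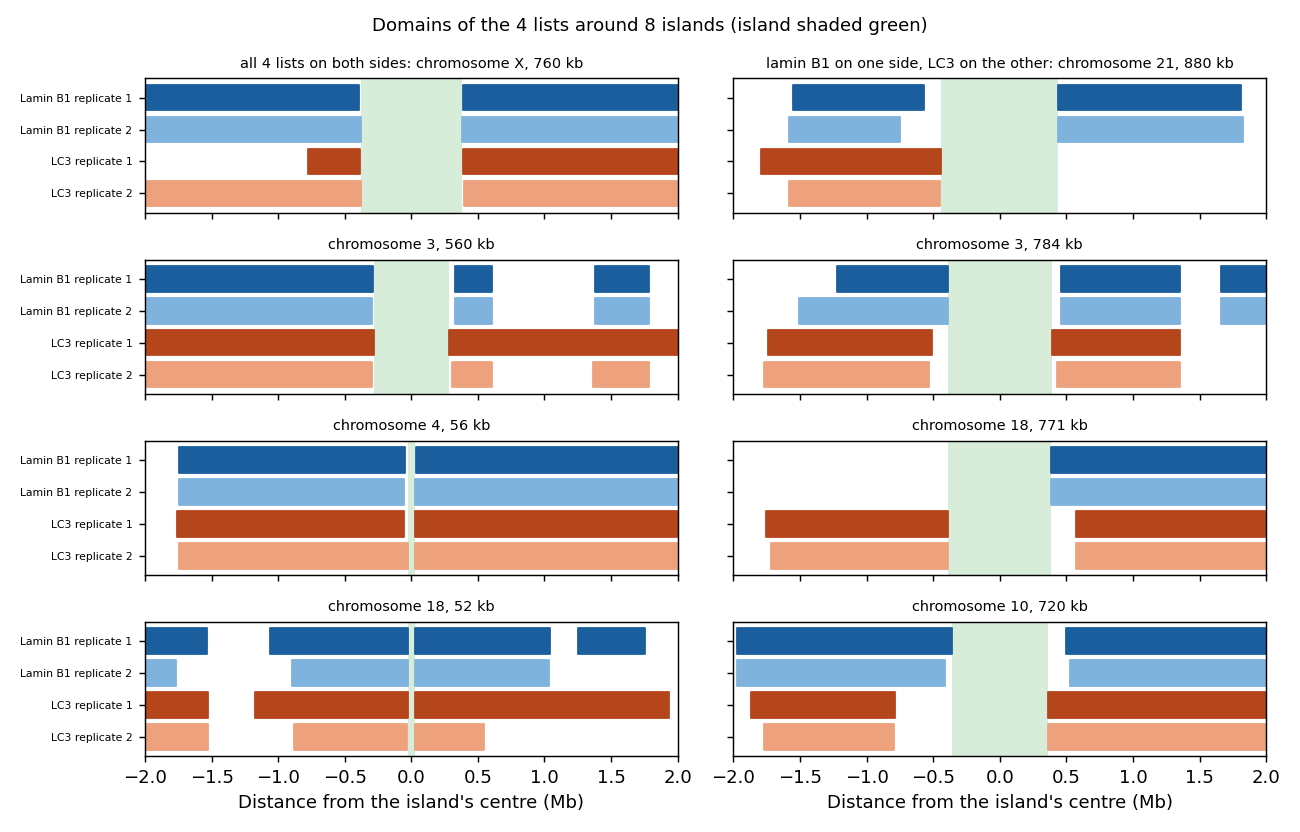
Domains of the 4 lists (rows) by distance from the island's centre in Mb (x axis), within 2 Mb of each of 8 islands, which are shaded green. The left panels show 4 islands framed by all lists on both sides (760, 560, 56 and 52 kb), and the right panels show 4 with lamin B1 at one side and LC3 at the other in both replicates (880, 784, 771 and 720 kb).

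Lamin B1 on one side and LC3 on the other, in the same order in both replicates, marked 13 islands. Lamin B1 was at the lower coordinate in 8 of them. The longest was on chromosome 21 from 40100001 to 40980000 (880 kb). LC3 came within 0 and 11 kb of its lower side and lamin B1 ended 128 and 312 kb away, while both lamin B1 lists began exactly at the upper side. There LC3 replicate 1 resumed after 4890 kb and LC3 replicate 2 listed no further domain. On chromosome 18 from 23485001 to 24256000 (771 kb), the lower flank of 1.37 Mb was held by LC3 alone. The nearest lamin B1 domains below were 8224 and 8225 kb away. At the upper side of this island lamin B1 began within 2 kb and LC3 184 and 185 kb further, so that the replicates of a protein differed by at most 2 kb. Elsewhere the offset was small. On chromosome 3 from 178716001 to 179500000 (784 kb), LC3 ended 116 and 138 kb short of the lower side. At the upper side lamin B1 began 68 kb away in both replicates and LC3 0 and 35 kb away. In replicate 2 the class at that side thus depends on the 50 kb distance used to call an edge. The other 2 named by the rule were on chromosome 10 from 123360001 to 124080000 (720 kb) and chromosome 2 from 228075001 to 228786000 (711 kb). Such islands are places where the domains of the 2 proteins end at different points, so that the island is narrower than the gap of either protein.

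Most islands had a wider gap in at least one list. The own gap around an island was under 1 Mb in 152 and 131 cases for the lamin B1 lists and in 106 and 144 for the LC3 lists. It was under 1 Mb in all 4 lists for 50 islands (21.5%), in 3 lists for 43, in 2 for 79 and in 1 for 46. For 15 islands (6.44%) no single list had a gap that short, so that the island exists only in the union. Median own gap length was 0.798 and 0.914 Mb in the lamin B1 lists (232 and 226 islands). In the LC3 lists it was 1.00 and 0.813 Mb (214 and 210 islands). The medians leave out islands where a list had no domain on at least 1 side, which were more in the LC3 lists. Widest were the gaps of the LC3 lists, at 32.7 and 32.8 Mb. Of the 466 flanking positions, 343 (73.6%) were domains that held both proteins (median 1.85 Mb), 80 held lamin B1 without LC3 (median 0.521 Mb) and 43 held LC3 without lamin B1 (median 0.807 Mb). These shares were close to those among all 568 union domains, 72.7%, 17.3% and 10.0%.

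Coverage rose outward from the edges. In the first 10 kb, lamin B1 covered 48.7% and 33.8% of the 466 sides in replicates 1 and 2, and LC3 covered 41.6% and 37.8%. Lamin B1 then peaked at 77.3% between 230 and 240 kb in replicate 1 and at 71.9% between 270 and 280 kb in replicate 2. LC3 peaked at 63.7% between 360 and 370 kb in replicate 1 and at 71.8% between 300 and 310 kb in replicate 2. By 1 Mb all 4 lists were between 52.5% and 54.1%. Around the longer gaps lamin B1 peaked at 74.1% and 68.9% and LC3 at 66.2% and 71.0%. The first bin there was lower for lamin B1 (36.3% and 27.0%). For LC3 it was higher in replicate 1 (46.4%) and lower in replicate 2 (35.9%).

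**Figure D4:**
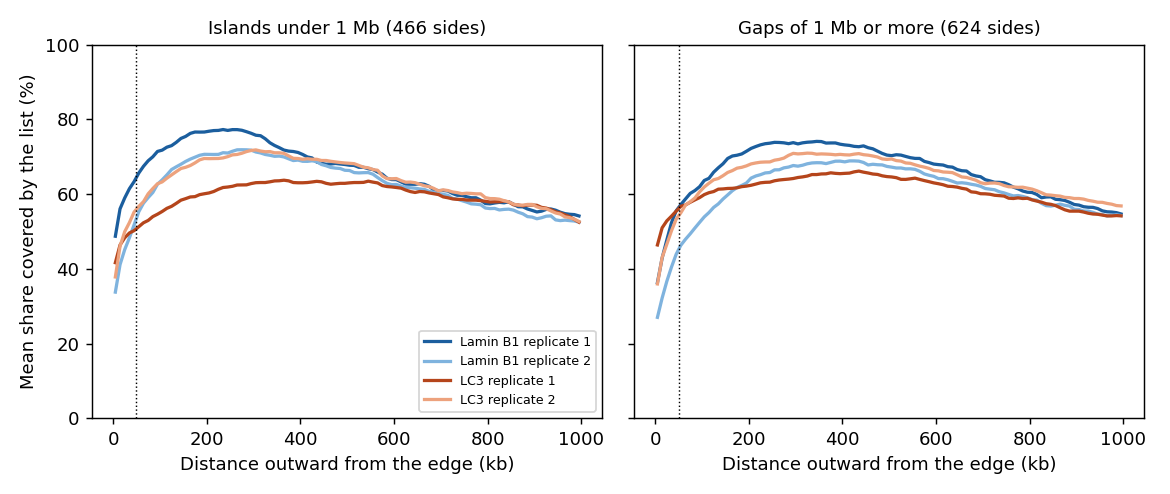
Mean percent of sequence covered by each list (y axis) in 10 kb steps outward from the edge in kb (x axis), for islands (left, 466 sides) and for gaps of 1 Mb or more (right, 624 sides). The dotted line marks 50 kb, the distance used to call an edge. Near islands LC3 replicate 1 stays below the other lists between about 100 and 400 kb, and lamin B1 replicate 1 lies above them.

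In both replicates lamin B1 edged a larger share of sides at islands under 100 kb than at those of 500 kb or more. Under 100 kb (22 islands), lamin B1 edged 81.8% and 72.7% of sides and LC3 52.3% and 63.6%. From 100 to 250 kb, lamin B1 edged 67.9% and 53.6% and LC3 39.3% and 57.1%. From 250 to 500 kb, lamin B1 edged 67.8% and 58.5% and LC3 45.8% and 53.4%. From 500 kb upward (124 islands), lamin B1 edged 58.5% and 47.6% and LC3 55.2% and 56.5%. The share of lamin B1 replicate 2 thus did not fall steadily with length. Islands under 100 kb include the narrow length cluster, for which undetermined bases of the assembly were not located. The 60 islands with lamin B1 on both sides in both replicates had a median length of 359 kb, and the 39 with LC3 on both sides in both replicates had one of 583 kb. These groups share the 10 islands framed by all lists. The 11 islands framed by lamin B1 without LC3 in both replicates had a shorter flank of 0.381 Mb in the median, against 0.872 Mb for the 7 framed by LC3 without lamin B1. The latter lay on 4 chromosomes and none on X. Only 20 of all 233 islands are on X, so none among 7 says little about X.

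Whether the sequence of islands stays free in lists that did not define them was read from held-out replicates. Free sequence does not show that the flanking domains recur, since it stays free where these are missing and the gap is longer. Undetermined bases of the assembly were not separated, and a stretch of them could be free in every list regardless of the proteins. The lists of replicate 1 alone gave 223 islands over 118 Mb. Of that sequence, 98.5% was free of domains in lamin B1 replicate 2, 92.7% in LC3 replicate 2 and 92.1% in both together. The lists of replicate 2 gave 217 islands over 115 Mb, of which 92.8% was free in lamin B1 replicate 1, 89.0% in LC3 replicate 1 and 84.3% in both together. Complete filling was uncommon. Domains of the other replicate filled 11 of 223 islands (4.93%) and 21 of 217 (9.68%) from end to end. Islands that merge into a longer gap in the other replicate were not counted apart, so these counts do not give all losses. Free over their full length were 110 (49.3%) and 57 (26.3%), and 102 and 139 were filled in part. Gaps of 1 Mb or more, made in the same way, had 95.3% and 94.1% of their sequence free in the other replicate, with 10 of 320 and 4 of 314 filled. A domain has to be longer to fill a longer gap, so the filled counts of the 2 classes are not on an equal footing.

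The proteins differed in how far each ran through the short gaps of the other. The 2 lamin B1 lists together left 225 gaps under 1 Mb. LC3 replicate 1 filled 55 of these (24.4%) from end to end and LC3 replicate 2 filled 54 (24.0%). The 2 LC3 lists left 169 gaps under 1 Mb, of which lamin B1 filled 9 (5.33%) and 6 (3.55%). In both LC3 lists the share was thus above that in both lamin B1 lists, and with 2 lists on each side an exact two-sided permutation test cannot give a p below 0.33. Domain length goes with this, since LC3 domains were fewer, 437 and 475 against 613 and 593, over a similar total; its part was not tested. Gaps of 1 Mb or more showed the same direction. There LC3 filled 8.03% and 9.42% of the lamin B1 gaps, and lamin B1 filled 3.69% and 2.35% of the LC3 gaps. By length of the short gap, LC3 filled 0 of the 16 lamin B1 gaps under 100 kb in either replicate. Of these gaps, 13 and 14 were free of LC3 altogether. From 100 to 250 kb it filled 4 of 23 in each replicate, from 250 to 500 kb 18 and 17 of 63, and from 500 kb upward 33 of 123 in each. Lamin B1 filled 0 of 13 LC3 gaps under 100 kb and 0 of 18 from 100 to 250 kb in either replicate, 4 and 1 of 38 from 250 to 500 kb, and 5 of 100 in each from 500 kb upward. LC3 gaps free of lamin B1 made up 69.2% in both replicates in the shortest class and 62.0% and 55.0% in the longest. From 100 to 250 kb they made up 50% and 55.6%, and from 250 to 500 kb 50% and 55.3%. Undetermined bases of the assembly were not separated from these gaps. Seen from single lists, 71.0% and 61.9% of the short gaps of lamin B1 and 88.1% and 90% of those of LC3 contained an island. The remainder were closed by other lists.

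Islands were found on 22 of 23 chromosomes. Chromosome 18 had the most for its number of domains, 11 islands between 17 union domains, which is 68.8% of its gaps. Chromosome 8 followed with 19 islands between 37 domains, and chromosomes 7 and X tied for the third place with 13 islands between 26 domains and 20 between 40. Fewest were on chromosome 17, with 0 islands among 5 gaps, chromosome 16 with 2 among 14 and chromosome 22 with 1 among 5. Across the 23 chromosomes, the percent of gaps that are islands and the percent of the span in union domains were related with Pearson's r at 0.543 and Spearman's rho at 0.322. When chromosomes 17 and 22 were left out, whose coverage is farthest from the median, r was 0.208, so the relation rests on them. Both measures come from the same lists, and chromosomes are not replicates.

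**Figure D5:**
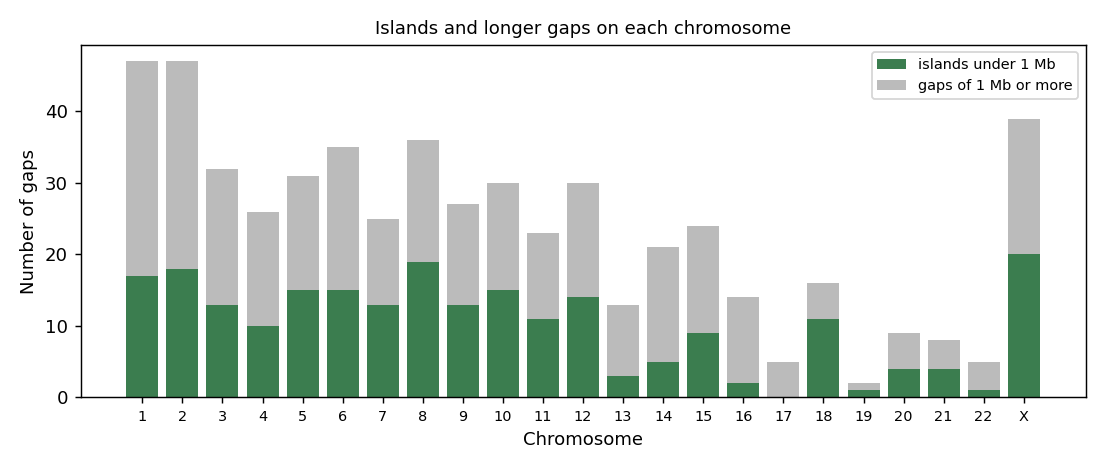
Number of gaps (y axis) on each chromosome (x axis), divided into islands under 1 Mb (green) and gaps of 1 Mb or more (grey). Chromosome 18 has 11 islands among 16 gaps and chromosome 17 has 0 among 5.

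On chromosome X the borders of islands were mostly lamin B1. Of 40 sides there, lamin B1 edged 32 and 29 (80.0% and 72.5%) and LC3 13 and 20 (32.5% and 50.0%). On autosomes lamin B1 edged 62.7% and 51.6% of sides and LC3 52.3% and 57.0%. Both lamin B1 lists lay above both LC3 lists on X, and on autosomes LC3 replicate 2 lay between the lamin B1 lists. LC3 replicate 1 framed 2 of the 20 islands on X on both sides and LC3 replicate 2 framed 8, so the LC3 values on X depend on the replicate.

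Islands were also counted in runs, chains of islands that are parted by single union domains. Of 131 runs, 74 held 1 island and 57 held 2 or more, and these 57 contained 159 of the 233 islands. Islands are 42.8% of all gaps, and whether they neighbour each other more than this share brings was not tested. The run with the longest span among those of at least 4 islands was on chromosome 18 from 22115001 to 55215000, where 6 islands summing to 3.94 Mb broke 33.1 Mb into 7 domains. Within it lamin B1 covered 24.9 and 21.9 Mb and LC3 26.4 and 27.6 Mb. Chromosome X also had a run of 6, from 3918001 to 18172000, with 10.9 and 7.15 Mb of lamin B1 and 4.30 and 4.74 Mb of LC3. A run of 5 on chromosome X from 136101001 to 152625000 held 1.21 Mb of islands in 16.5 Mb. Among runs of at least 4 islands, the share of island sequence was highest in a run of 5 on chromosome 9 from 41820001 to 46964000, at 47.3% of 5.14 Mb. Shorter runs were not ranked. There LC3 replicate 1 listed 0.790 Mb and edged 1 of 10 sides, while the other 3 lists covered 2.09 to 2.21 Mb and edged 7 or 8.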

How the data were processed

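Domain lists of 4 precipitated samples were used, each deposited by the authors as 3 columns, the chromosome, start and end of a domain in GRCh37/hg19, with no score, height or p-value. The tools bcl2fastq 2.16.0.10, Bowtie2 and bedtools are named, without roles, per the submitters' processing notes. For settings and the use of input, nothing is given in the sources used here. The lists carry the name of EDD, a caller of broad domains that can bridge short unenriched stretches, so whether a short gap is listed can depend on its settings. Starts and ends are multiples of 3 kb (lamin B1 replicate 1 and LC3 replicate 2), 4 kb (lamin B1 replicate 2) or 5 kb (LC3 replicate 1), which limits edge precision. Sequencing depth is unknown.

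Lists were merged and gaps, flanks, edges and runs were computed with Python 3.11.15 and NumPy 2.4.6, and the functions were tested on simulated data. Left and right, or lower and upper, refer to coordinates. No test was run: the rule uses all 4 lists, and 2 lists against 2 could not be called by an exact test. Islands named were the 5 longest, the 5 shortest, the 5 with the longest shorter flank, those at the 1 Mb limit and up to 5 with different proteins on the 2 sides; the 10 framed by all lists and the runs were singled out after their values were seen. Members and gene lists were chosen with earlier results of these data known. Gene lists were not used, since no annotation of the build was at hand.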

Additional observations from a re-analysis of the deposited data

How the results depend on the processing

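Of 90 values under other settings, 46 stayed within the limit, which was 1.5 times for a count and 1 SD between the islands of replicate 1 and those of replicate 2 for other values. The number of islands (233) was 109 with gaps under 0.5 Mb and 379 with gaps under 2 Mb, and it stayed between 169 (LC3 lists alone) and 234 otherwise. Leaving out a list gave 221 to 234 islands, 114 to 122 Mb of summed length, a median length of 520 to 554 kb and a shorter flank of 0.720 to 0.879 Mb. Summed length (119 Mb) was 27.3 Mb under 0.5 Mb, 319 Mb under 2 Mb, 114 Mb with consensus domains, 95.3 Mb with domains of at least 500 kb, 111 Mb on autosomes and 93.7 Mb with LC3 lists alone. Median length (528 kb) was 276 kb under 0.5 Mb, 819 kb under 2 Mb, 539 kb with islands of at least 50 kb, 579 kb with islands of at least 100 kb (chosen after the data were seen), 572 kb with consensus domains, 579 kb with domains of at least 500 kb, 546 kb on autosomes, 540 kb with lamin B1 lists alone and 590 kb with LC3 lists alone. The shorter flank (0.852 Mb) was 0.700 Mb under 0.5 Mb, 1.08 Mb with domains of at least 500 kb, 0.678 Mb with lamin B1 lists alone and 0.906 Mb with LC3 lists alone. With the replicate number as a block (replicate block, islands made from lists of one number), replicates 1 and 2 gave 223 and 217 islands, 118 and 115 Mb, medians of 546 kb in both (a spread of 0, so that any other median counts as moved) and shorter flanks of 0.870 and 0.807 Mb.

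Islands with both proteins on both sides numbered 6, 8 and 35 in replicate 1 (19 at 50 kb) and 7, 9 and 50 in replicate 2 (28 at 50 kb) when an edge had to lie within 5, 10 or 100 kb. For all 4 lists these counts were 1, 2 and 24 (10 at 50 kb), and leaving out a list gave 14 to 29; with 3 lists to match, the count can rise by construction. Sequence of replicate 2 islands free in replicate 1 was 78.5% under 0.5 Mb (84.3% under 1 Mb). The cause of the other shifts was not tested. Gene and base composition results, with their alternatives, were not run.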
